A study of Mus musculus with 4 samples.

Results

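The genes described are those of Wnt signalling from the secreted ligand to the nuclear factors, chosen by symbol: the Wnt, Fzd, Sfrp, Dkk, Rspo, Dvl, Tle and Tcf7 families and 24 further genes named one by one. The table holds 55 of them among 14979 genes. Of these, 54 code for proteins, and 1, Fzd10os, is an RNA transcribed from the strand opposite the receptor gene Fzd10 that the symbol pattern also takes in. They were measured in colon tumours of AOM/DSS mice, in which the carcinogen azoxymethane is combined with dextran sulfate sodium, an agent that inflames the colon. One group received an antibody to MAdCAM-1, the adhesion molecule of gut venules that captures lymphocytes, and the other received an IgG control antibody. Each group held 2 mice with 1 library each, called IgG 1, IgG 2, MAdCAM1 1 and MAdCAM1 2. All 4 mice carried AOM/DSS tumours, and no normal colon and no tumour without colitis was analysed here. The labels give neither the strain, age or antibody dose nor how many tumours went into each library.

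Wnt proteins are lipid-modified signals that act over short distances. They bind a Frizzled receptor together with Lrp5 or Lrp6, and Dishevelled proteins then halt the destruction complex of Apc, Axin and 2 kinases that otherwise marks β-catenin for breakdown. The β-catenin that accumulates enters the nucleus and joins Tcf and Lef factors, displacing the repressors of the Tle family. In the colon this signal maintains the stem cells at the crypt base, and its activation by mutation of the pathway is a common first step in intestinal tumours. In AOM/DSS tumours of mice that mutation is known to fall often in the β-catenin gene itself.

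Levels came from CAGE (cap analysis of gene expression), which reads short tags at the capped start of each RNA. Since each RNA molecule gives tags from its start only, the tag count does not grow with transcript length. The libraries held between 14850923 and 16891234 tags, so 1 tag was worth 0.0569 to 0.0700 CPM (CAGE tags scaled to a common library size, with TMM factors that adjust for composition). Colon epithelial markers were present throughout, with 12 of 12 tested and sums of 7414 and 6560 CPM for the controls against 11990 and 10480 CPM for the antibody group. Smooth muscle markers (7 of 10 tested) parted the libraries within each group, with 1708 CPM in IgG 1 and 1922 CPM in MAdCAM1 2 against 108 CPM in IgG 2 and 126 CPM in MAdCAM1 1. Fibroblast markers (14 of 14 tested) summed to 1002 and 1853 CPM in IgG and to 818 and 2370 CPM in MAdCAM1. T cell markers (6 of 13 tested) summed to 23.5 to 57.7 CPM. Cd5 (3, 3, 0 and 4 tags in IgG 1, IgG 2, MAdCAM1 1 and MAdCAM1 2) and Il7r (7, 2, 0 and 1 tags) were too low to be tested. The parts of these differences in the results on Wnt genes were not tested. In whole tumours, fewer cells of a type and less RNA per cell cannot be told apart.

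**Figure D1:**
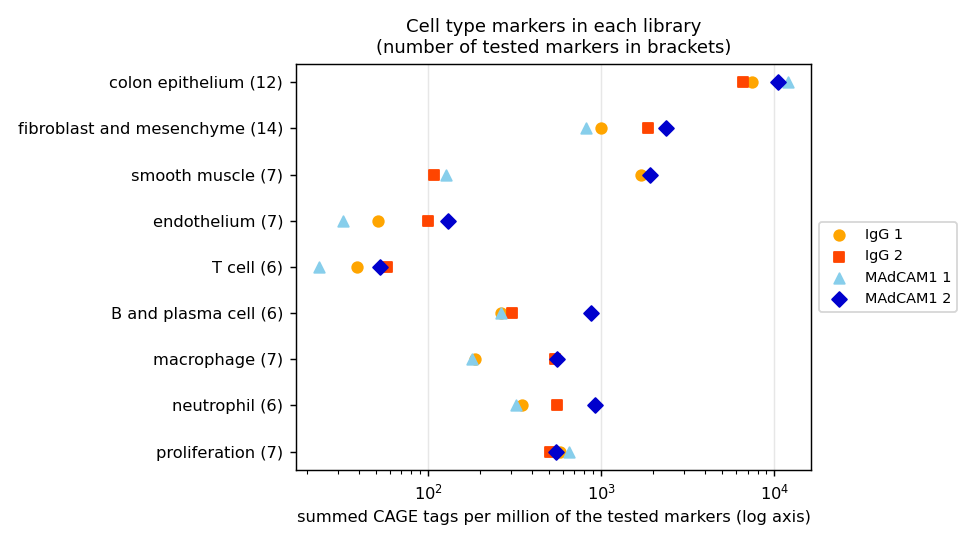
Summed CPM (log axis) of the tested markers of each cell type in each of the 4 libraries. IgG 1 and MAdCAM1 2 carried the smooth muscle signal at 1708 and 1922 CPM, and both IgG libraries lay below both MAdCAM1 libraries for colon epithelium.

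Of the 80 genes that the GENCODE annotation holds under these symbols, 55 were in the table and 52 had enough tags to be tested. Coverage followed the genes' place in the pathway. All 10 Frizzled receptors and all 6 co-receptors and other receptors were tested, as were 12 of 13 cytoplasmic transducers and 13 of 15 nuclear factors. Of 19 Wnt ligands 7 were in the table and 5 were tested, and no R-spondin was analysed here. Wnt4 (10, 2, 0 and 2 tags in the order IgG 1, IgG 2, MAdCAM1 1, MAdCAM1 2), Wnt10b (0, 2, 3 and 2 tags) and Sfrp4 (10, 3, 0 and 21 tags) were too low to be tested.

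Because CAGE reads the start of transcripts, the 250 bases before the annotated start of 5 members are shown. They are read 5′ to 3′ on the gene's strand from GRCm39. The start is that of the transcript which the annotation marks as canonical, and the starts seen by CAGE were not used. Wnt6, Wnt10a and Fzd10 are shown because their tags were most abundant in 1 control library, IgG 2. Tle1 and Lrp6 are shown because, of the 52 tested members, they alone hold the letters CTTTGAT. These letters are 1 form of the core of the site that Tcf and Lef factors bind. Apart from the shorter CTTTGA, no other form was searched. Both choices of genes were made after values and letters were seen. Capitals mark CTTTGA.
Wnt6, chr1:74810672-74810921, + strand: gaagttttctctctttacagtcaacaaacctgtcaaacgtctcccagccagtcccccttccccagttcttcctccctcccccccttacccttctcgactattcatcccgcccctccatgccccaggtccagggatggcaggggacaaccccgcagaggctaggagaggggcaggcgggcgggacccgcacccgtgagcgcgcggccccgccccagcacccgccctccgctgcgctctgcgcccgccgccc
Wnt10a, chr1:74830425-74830674, + strand: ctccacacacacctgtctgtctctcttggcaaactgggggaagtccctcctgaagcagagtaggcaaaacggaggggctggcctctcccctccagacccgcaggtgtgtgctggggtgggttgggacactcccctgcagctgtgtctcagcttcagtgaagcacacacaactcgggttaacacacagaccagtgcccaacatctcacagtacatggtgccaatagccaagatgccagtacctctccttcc
Fzd10, chr5:128677658-128677907, + strand: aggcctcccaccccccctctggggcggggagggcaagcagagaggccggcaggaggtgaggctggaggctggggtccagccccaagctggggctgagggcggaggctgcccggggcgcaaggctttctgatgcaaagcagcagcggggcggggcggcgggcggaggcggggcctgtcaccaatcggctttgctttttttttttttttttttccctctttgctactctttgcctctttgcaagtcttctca
Tle1, chr4:72119281-72119530, - strand: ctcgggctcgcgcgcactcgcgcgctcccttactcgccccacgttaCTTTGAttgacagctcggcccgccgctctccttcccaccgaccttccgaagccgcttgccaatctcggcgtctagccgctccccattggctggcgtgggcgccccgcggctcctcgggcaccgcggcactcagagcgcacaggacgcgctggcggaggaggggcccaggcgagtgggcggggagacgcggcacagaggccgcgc
Lrp6, chr6:134544213-134544462, - strand: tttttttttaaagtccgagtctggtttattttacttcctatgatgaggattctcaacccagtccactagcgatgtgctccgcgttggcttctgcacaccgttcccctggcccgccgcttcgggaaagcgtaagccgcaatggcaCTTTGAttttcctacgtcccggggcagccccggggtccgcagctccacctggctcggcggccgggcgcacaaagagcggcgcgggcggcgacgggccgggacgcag
The letters CTTTGA, searched on both strands, occurred in this window in 6 of 52 tested members (11.5%) and in 12.1% of the 14287 tested genes with a window. The longer CTTTGAT, which contains it, occurred in 2 members (3.85%) and in 2.59% of all. In Tle1 the first letter of CTTTGAT lies 204 bases before the start and in Lrp6 106 bases before it. TATAAA, the core of a TATA box, occurred on either strand in 5 members (9.62%) and in 8.72% of all. The window of Fzd10 overlaps an exon of Fzd10os, and that of Tle1 overlaps an exon of the long non-coding RNA C630043F03Rik. The windows of members had a median GC content of 61.6%, against 56.0% over all tested genes. Wnt6 (68.0% GC) and Wnt10a (57.6% GC) differed in their ratio of observed to expected CpG, at 0.687 and 0.147.

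The comparison between the antibody groups asks whether the Wnt machinery of the tumours differed after MAdCAM-1 was blocked. The quasi-likelihood test of edgeR, with Benjamini-Hochberg adjustment over all genes, called 0 of 52 members (adjusted p 0.691 to 0.998) and 0 of the 14331 genes tested (0%). Before adjustment, 1 member was higher and 7 were lower in the MAdCAM1 group at a p under 0.05, a level at which 5.09% of all genes were higher and 1.82% lower. edgeR's exact test and DESeq2 each called 0 members, against 1.12% and 1.67% of all genes, and limma-voom called 0 members and 0% of all genes. Differences are given as the log2 ratio, or log2 fold change, of MAdCAM1 over IgG. Their median over the 52 members was −0.23 and over all genes tested −0.0012. Of the members 38 (73.1%) had a negative value, against 50.2% of all genes. Without IgG 1 the median over members was −0.12, and 30 of the 53 members then tested were negative.

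The groups were fully apart in 25 members. Both MAdCAM1 libraries lay below both IgG libraries for 19 of 52, where this held for 18.7% of all genes, and above them for 6, where it held for 19.7%. With scaling by library size alone these counts were 24 and 6, against 28.6% and 13.6% of all genes. With a log2 difference of at least 0.5 as well, there were 9 lower members (4.84% of all genes) and 6 higher members (8.76% of all genes). With 2 mice per group an exact two-sided permutation test of a single gene cannot reach a p below 0.333.

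**Figure D2:**
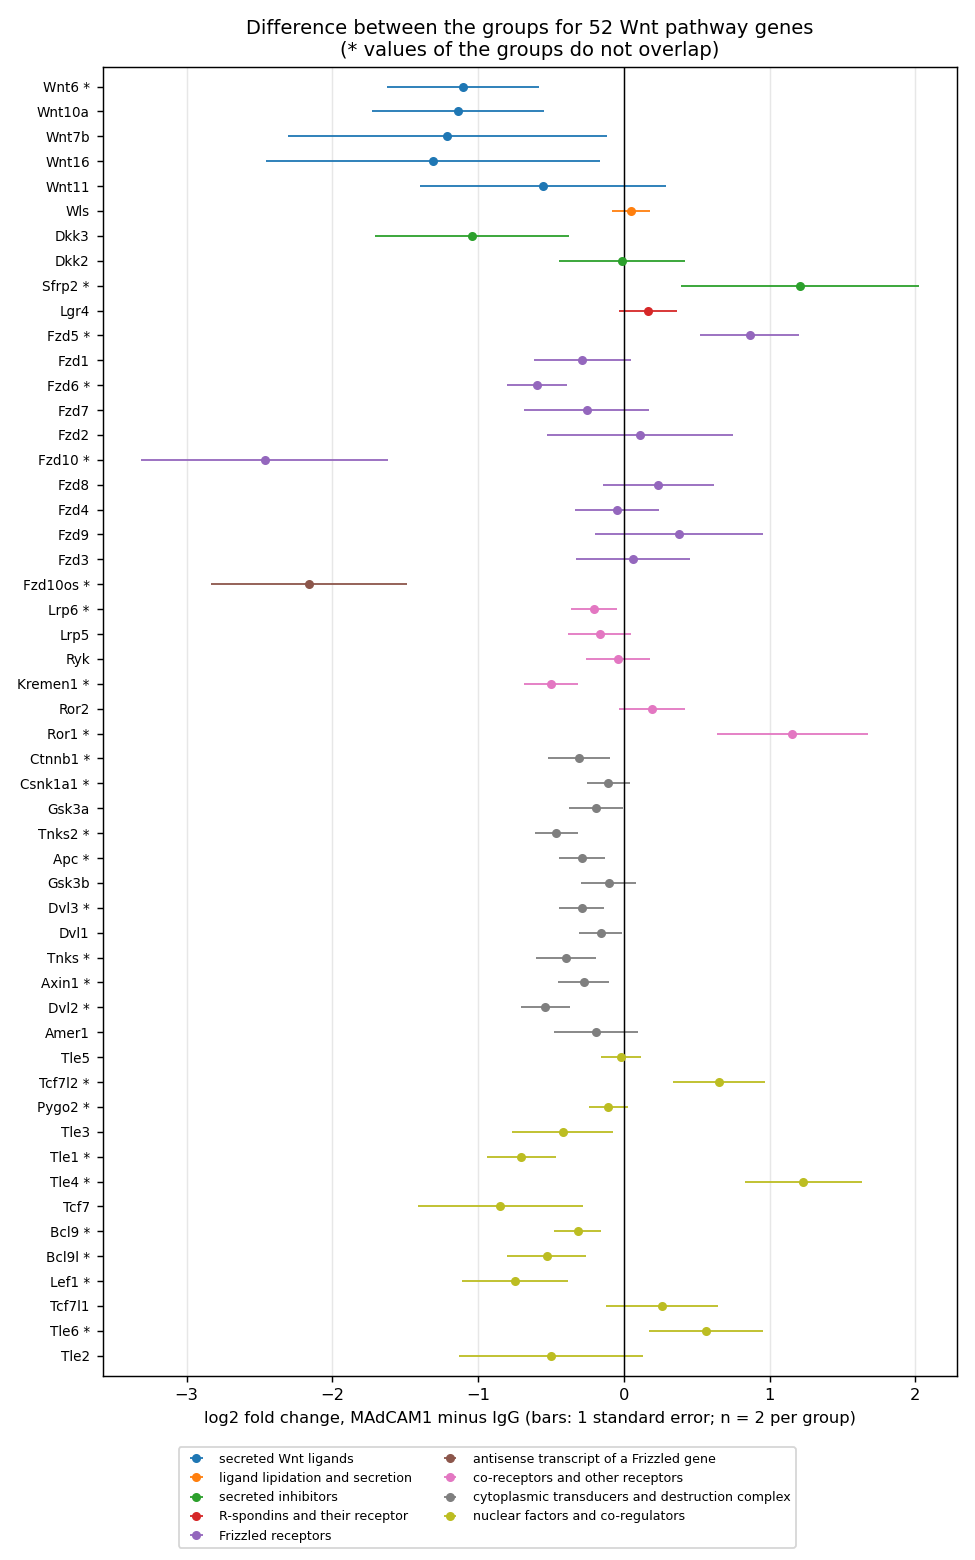
Log2 fold change, MAdCAM1 minus IgG, of the 52 tested members with 1 standard error (n = 2 per group), coloured by role; an asterisk marks groups without overlap. All 12 cytoplasmic transducers lie left of 0, whereas the 10 Frizzled receptors lie on both sides, from −2.46 to 0.86.

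The ligands were led by Wnt6 and Wnt10a, which stood far above the other tested Wnt genes. Both code for secreted Wnt proteins known to be made in epithelia. Wnt6 (chromosome 1, 74810922 to 74824975, GRCm39) stood at 35.4 CPM in IgG 1, 98.3 CPM in IgG 2, 30.5 CPM in MAdCAM1 1 and 31.7 CPM in MAdCAM1 2. IgG 2 was high, the other 3 libraries lay close together, and the groups did not overlap (log2 fold change −1.10, SE 0.52, edgeR adjusted p = 0.760). Wnt10a (chromosome 1, 74830675 to 74844355) starts 5699 bases beyond the end of Wnt6 on the same strand. It stood at 27.5, 81.0, 29.8 and 19.5 CPM across IgG 1, IgG 2, MAdCAM1 1 and MAdCAM1 2, respectively (log2 ratio −1.14, SE 0.59, edgeR adjusted p = 0.763). Again IgG 2 alone was high, by 2.95-fold over IgG 1 against 2.78-fold for Wnt6, and IgG 1 lay between the MAdCAM1 libraries. Without IgG 2 the log2 fold changes were −0.19 for Wnt6 and −0.17 for Wnt10a, so the difference between the groups rested on that library.

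The remaining ligands were low and had their highest level in IgG 1. Wnt7b, an epithelial ligand, stood at 12.7, 3.28, 0.980 and 5.89 CPM in the same order, so that the groups overlapped and both groups spread widely (log2 fold change −1.21, SE 1.09). It was higher in IgG 1 and MAdCAM1 2, the libraries with the smooth muscle signal, but a link to that signal was not tested. Without IgG 1 its log2 fold change was 0.07. Wnt16 had 167 tags in IgG 1 against 14, 31 and 31 in the other libraries, and Wnt11, a ligand known for signalling without β-catenin, had 62 against 14, 14 and 31. Without IgG 1 their log2 fold changes turned to 1.25 and 0.77. Wls, the carrier that brings Wnt proteins to the cell surface, was nearly level at 104, 101, 109 and 103 CPM (log2 ratio 0.05, SE 0.13), though the sign of this small value flipped with scaling by library size (−0.05).

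Secreted inhibitors and the R-spondin receptor gave 3 different patterns. Dkk3, a member of the Dickkopf family that differs from the others in not being a clear Wnt antagonist, stood at 40.6, 155, 45.5 and 49.7 CPM. IgG 2 exceeded IgG 1 by 3.82-fold, IgG 1 was the lowest of all, and the groups overlapped (log2 fold change −1.04, SE 0.67). Without IgG 2 the value was 0.22. Dkk2, which binds Lrp5 and Lrp6, stood at 24.4, 47.9, 44.2 and 27.4 CPM, with IgG 2 and MAdCAM1 1 high and the groups alike in mean (log2 fold change −0.01, SE 0.43). Sfrp2, a stromal protein that binds Wnt ligands, stood at 3.36, 0.680, 4.27 and 5.12 CPM. The groups did not overlap, but the log2 fold change of 1.21 (SE 0.81) was 0.48 without IgG 2, which had 11 tags. Lgr4, a receptor for R-spondins that raises the number of Frizzled receptors at the membrane, stood at 239, 180, 227 and 243 CPM (log2 ratio 0.17, SE 0.20). It was among the most abundant members, with IgG 2 alone lower.

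The Frizzled receptors had 2 members lower and 1 higher without overlap, against 18.7% and 19.7% of all genes, and 7 of 10 overlapped. Fzd10 (chromosome 5, 128677908 to 128681157) showed the largest difference of the 52 tested members. It stood at 5.24 CPM in IgG 1, 21.5 CPM in IgG 2, 3.22 CPM in MAdCAM1 1 and 1.62 CPM in MAdCAM1 2, on 92, 348, 46 and 25 tags. The groups did not overlap, and the log2 fold change was −2.46 (SE 0.85, edgeR adjusted p = 0.712). Without IgG 2 it was −1.12. Its antisense RNA Fzd10os (128656151 to 128679570) overlaps 1663 bases of the gene and had 24, 57, 9 and 7 tags (log2 fold change −2.16, SE 0.67, and −1.33 without IgG 2). The order of the libraries was the same for both, but whether the counting kept the strands apart is not given in the sources used here, so their tags may not be separate.

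Fzd5 and Fzd6 went in opposite directions. Fzd5, a receptor known in the intestine for its part in Paneth cell maturation, stood at 40.6 and 22.1 CPM in the controls against 52.7 and 61.3 CPM after the MAdCAM-1 antibody. The MAdCAM1 values lay above both controls (log2 fold change 0.86, SE 0.34, edgeR adjusted p = 0.731), and the value was 0.49 without IgG 2. Fzd6, known for planar cell polarity, stood at 44.4 and 33.0 CPM against 25.3 and 26.0 CPM, with the 2 MAdCAM1 libraries nearly equal (log2 fold change −0.59, SE 0.21, and −0.38 without IgG 1). Fzd1, the other abundant receptor, overlapped at 48.2, 42.9, 26.3 and 48.4 CPM, with MAdCAM1 1 alone low. Fzd1, Fzd2, Fzd5, Fzd6, Fzd7 and Fzd8 had the higher value of each group in IgG 1 and MAdCAM1 2. For Fzd6 the MAdCAM1 values differed only as 25.3 against 26.0 CPM. How often other genes had this order was not counted, and a link to the smooth muscle markers was not tested. Fzd7 stood at 37.7, 17.01, 20.8 and 25.0 CPM and Fzd2 at 13.6, 7.42, 5.74 and 16.96 CPM. Fzd3, Fzd4, Fzd8 and Fzd9 ranged from 1.88 to 8.09 CPM and overlapped.

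**Figure D3:**
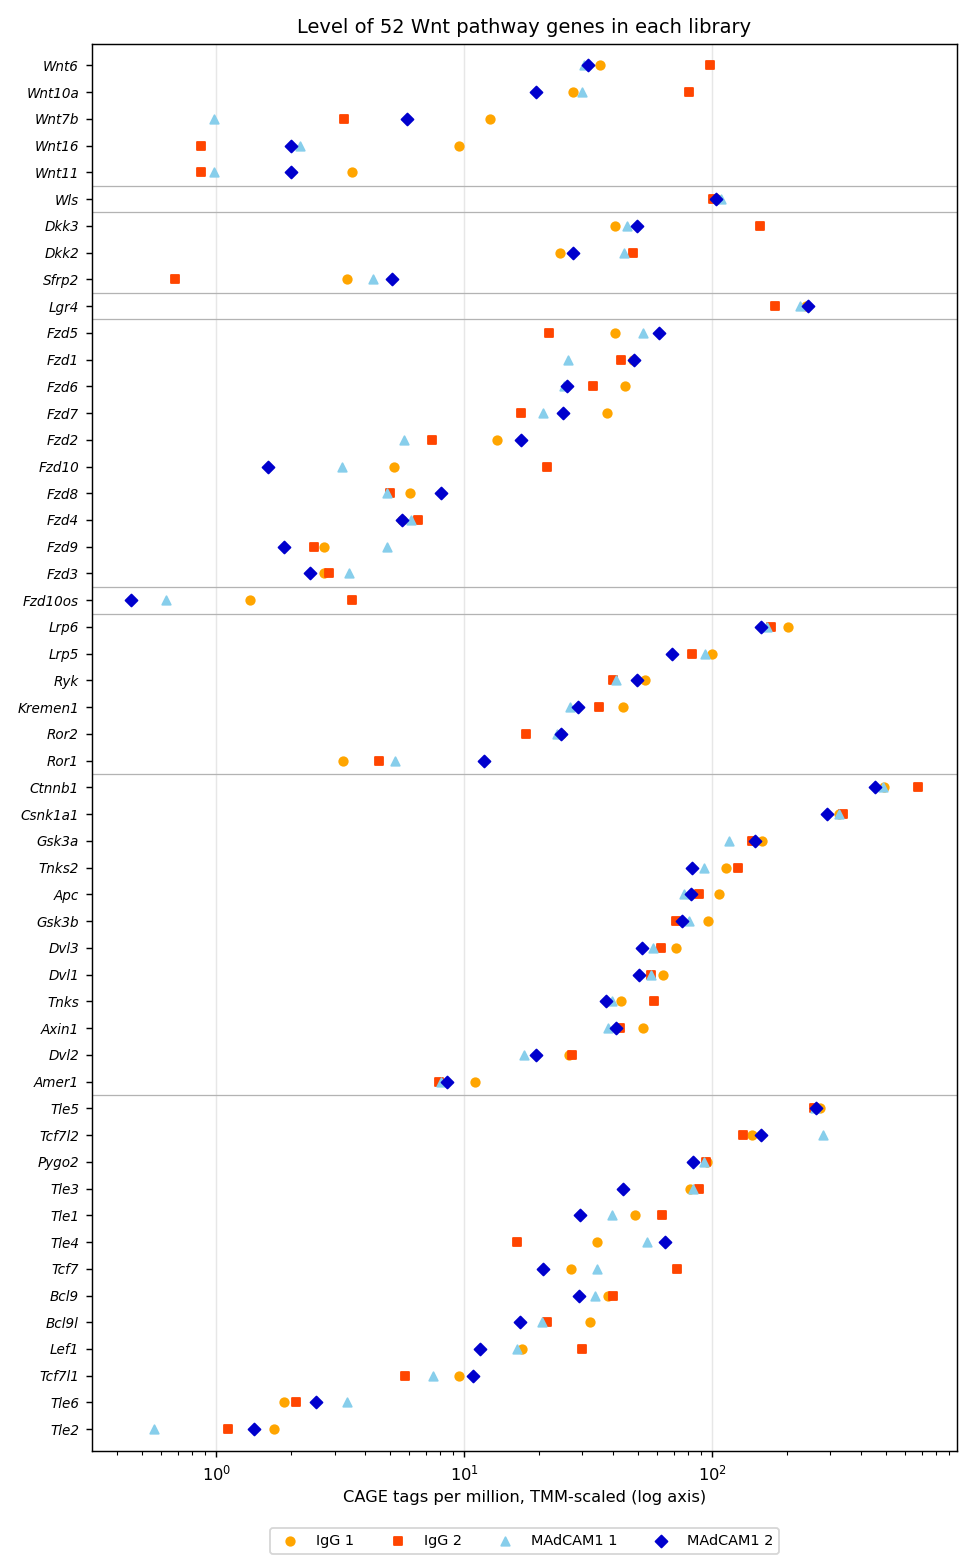
Level of each of the 52 tested members in the 4 libraries, in TMM-scaled CPM on a log axis, ordered by role and then by mean level. IgG 2 stands apart to the right for Wnt6, Wnt10a, Dkk3, Fzd10 and Tcf7, whereas Wls and Tle5 have their 4 points nearly together.

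Of the 6 co-receptors and other receptors, 2 lay lower and 1 higher without overlap, against 18.7% and 19.7% of all genes. Lrp6 stood at 202 and 172 CPM in the control pair against 167 and 157 CPM in the treated pair (log2 fold change −0.21, SE 0.16). The groups did not overlap, by a margin of 172 against 167 CPM. Lrp5 overlapped at 100, 82.6, 93.8 and 69.0 CPM. Kremen1, which binds Dickkopf proteins and removes Lrp6 from the membrane, stood at 43.8 and 34.9 CPM against 26.8 and 28.7 CPM, with no overlap (log2 fold change −0.50, SE 0.19). The receptor kinases of the pathway branch without β-catenin were not uniform. Ror1 stood at 3.24 and 4.51 CPM against 5.25 and 12.04 CPM, and the difference was carried by MAdCAM1 2 (log2 ratio 1.16, SE 0.52, and 0.44 without that library). Ror2 (17.7 to 24.5 CPM) and Ryk (39.8 to 53.7 CPM) overlapped.

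The cytoplasmic transducers lay on one side. All 12 tested members had a negative log2 fold change, as had 50.2% of all genes, from −0.54 to −0.10 with a median of −0.28, and none was highest in a MAdCAM1 library. In 8 of the 12 both MAdCAM1 libraries lay below both IgG libraries, as in 18.7% of all genes. The 12 values stayed negative under RLE and library size scaling. These moved the median of all genes to −0.0032 and −0.099, both downward, so neither setting could test the sign. Gsk3b (0.10) and Amer1 (0.05) turned positive without IgG 1. Of the 12, 0 passed the edgeR quasi-likelihood test over all genes, and 2, Dvl2 and Tnks2, had an unadjusted p under 0.05. Ctnnb1, the gene for β-catenin, was the most abundant member at 492, 677, 489 and 454 CPM. IgG 2 was again high, IgG 1 exceeded MAdCAM1 1 only by 492 against 489 CPM, and the log2 fold change was −0.31 (SE 0.21), or −0.07 without IgG 2.

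The Dishevelled genes pass the signal from the receptor to the destruction complex. Of the 3, 2 lay lower without overlap, as did 18.7% of all genes. Dvl2 stood at 26.5 and 27.2 CPM in the control pair against 17.4 and 19.6 CPM in the treated pair. The libraries of each group were close, and the log2 fold change of −0.54 (SE 0.17, edgeR adjusted p = 0.691) ranged only from −0.62 to −0.46 when any 1 library was left out. Dvl3 stood at 71.8 and 62.3 CPM against 57.7 and 52.0 CPM, and Dvl1 overlapped narrowly, since its 56.5 CPM in IgG 2 lay below the 56.7 CPM of MAdCAM1 1. The tankyrases, enzymes that mark Axin for degradation and so favour the signal, also lay lower in both MAdCAM1 libraries. Tnks2 stood at 114 and 128 CPM against 92.6 and 82.7 CPM (log2 ratio −0.46, SE 0.15), and Tnks at 42.9 and 58.5 CPM against 39.6 and 37.2 CPM.

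In the destruction complex, which restrains the signal, Apc stood at 106 and 88.3 CPM against 76.9 and 82.4 CPM. Its scaffold partner Axin1 stood at 52.6 and 42.5 CPM against 37.9 and 40.8 CPM. Neither overlapped, and their log2 fold changes were −0.29 (SE 0.16) and −0.27 (SE 0.18). Of the kinase genes, Csnk1a1 stood at 326, 336, 324 and 290 CPM (log2 fold change −0.11, SE 0.15). Its groups did not overlap, by a margin of 326 against 324 CPM. Gsk3b overlapped at 96.0, 71.8, 80.5 and 75.6 CPM, with IgG 1 high (log2 fold change −0.10, SE 0.19). Gsk3a overlapped at 159, 144, 117 and 149 CPM with MAdCAM1 1 low, and Amer1, a membrane anchor of the complex, ranged from 7.92 to 11.04 CPM. Genes that transmit the signal and genes that restrain it lay on the same side.

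**Figure D4:**
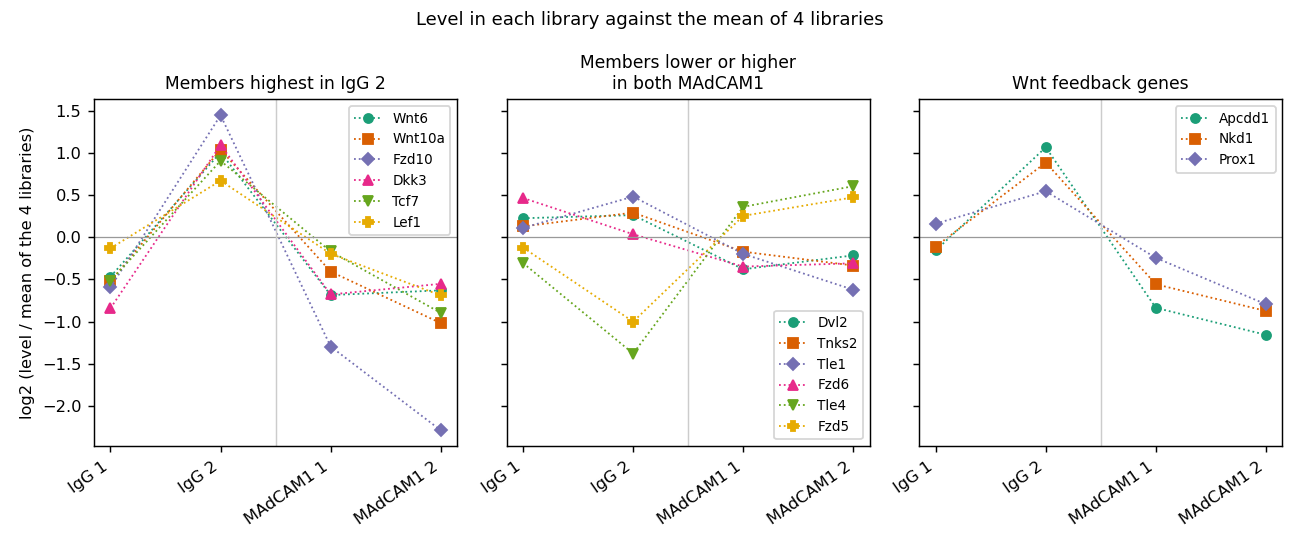
Log2 of the level in each library over the mean of the 4 libraries. Panels show members highest in IgG 2 (left), other members without overlap (middle) and 3 feedback and target genes (right). Those 3 had the smallest p of their list. Dotted lines only join the points of 1 gene. The genes of the left panel were picked for their peak in IgG 2, and the 3 genes of the right panel were also highest there. Of the middle panel, Dvl2, Tnks2 and Tle1 were highest in IgG 2 too, for Dvl2 only by 27.2 against 26.5 CPM in IgG 1.

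Of the 13 nuclear factors tested, 5 lay lower and 3 higher without overlap, against 18.7% and 19.7% of all genes. Among them, Tcf and Lef genes lay on both sides of 0. Tcf7, whose product is also abundant in T cells, stood at 26.9, 72.2, 34.3 and 20.7 CPM and overlapped, with IgG 2 high by 2.68-fold over IgG 1 (log2 fold change −0.85, SE 0.57, and 0.02 without IgG 2). Lef1, a factor raised by Wnt signalling in colon tumours, stood at 17.1 and 29.8 CPM against 16.3 and 11.6 CPM (log2 ratio −0.75, SE 0.36, and −0.30 without IgG 2). T cell markers summed to 57.7 CPM in IgG 2, of which Zap70 gave 31.2 CPM, and to 52.4 CPM in MAdCAM1 2, where Zap70 gave 9.84 CPM. Cd3d, Cd3e, Cd3g and Cd4 were highest in MAdCAM1 2, Zap70 in IgG 2 and Lck in MAdCAM1 1. Whether T cell content bears on the levels of Tcf7 and Lef1, both highest in IgG 2 and lowest in MAdCAM1 2, was not tested. Tcf7l2, the main Tcf of intestinal epithelium, lay on the other side at 145 and 133 CPM against 279 and 157 CPM. Its log2 fold change of 0.65 (SE 0.32) rested on MAdCAM1 1 and was 0.18 without it. Tcf7l1 overlapped between 5.75 and 10.8 CPM.

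The Tle co-repressors were divided. Tle1 stood at 48.7 and 62.9 CPM in the control pair against 39.3 and 29.3 CPM in the treated pair (log2 fold change −0.70, SE 0.23, edgeR adjusted p = 0.691). Tle4 stood at 34.3 and 16.3 CPM against 54.5 and 64.6 CPM (log2 ratio 1.23, SE 0.40, edgeR adjusted p = 0.691). Neither pair overlapped, and the signs held without any 1 library, from −0.93 to −0.51 for Tle1 and from 0.79 to 1.85 for Tle4. Tle5, a short family member, was level at 272, 259, 261 and 263 CPM, and Tle3 was low only in MAdCAM1 2 (81.2, 88.6, 83.5 and 43.6 CPM). Tle6 and Tle2, which overlap by 738 bases on opposite strands, had between 8 and 48 tags per library. Both MAdCAM1 libraries lay above both IgG libraries for Tle6 (1.88 and 2.10 against 3.36 and 2.53 CPM). Tle2 overlapped between the groups.

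The co-activators that tether to β-catenin lay lower in both MAdCAM1 libraries, as did 18.7% of all genes. Bcl9 stood at 38.1 and 39.8 CPM against 33.5 and 29.0 CPM. Its homologue Bcl9l stood at 32.3 and 21.6 CPM against 20.5 and 16.8 CPM (log2 ratio −0.53, SE 0.27, and −0.23 without IgG 1). Pygo2, which binds Bcl9 proteins, differed little at 95.3 and 94.7 CPM against 92.8 and 83.7 CPM.

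One library often stood apart from the other 3. In 6 of the 52 members (Wnt6, Wnt10a, Dkk3, Fzd10, Fzd10os and Tcf7) IgG 2 exceeded the next library by at least 2-fold, which it did in 1.49% of all genes tested. This fold was chosen after the values were seen. IgG 1 did so for Wnt7b and Wnt16 (3.85% of members and 0.523% of all genes), MAdCAM1 2 for Ror1 (1.92% and 2%) and MAdCAM1 1 for 0 members (0.307% of all genes). The 2 IgG libraries differed from each other by a median of 0.42 on the log2 scale over the members and 0.30 over all genes with tags in each library. For the MAdCAM1 libraries the medians were 0.25 and 0.24. IgG 1 was the highest library for 20 members (38.5%, against 22.2% of all genes) and IgG 2 for 17 (32.7%, against 29.3%). MAdCAM1 2 was the lowest for 21 (40.4%, against 27.8%).

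**Figure D5:**
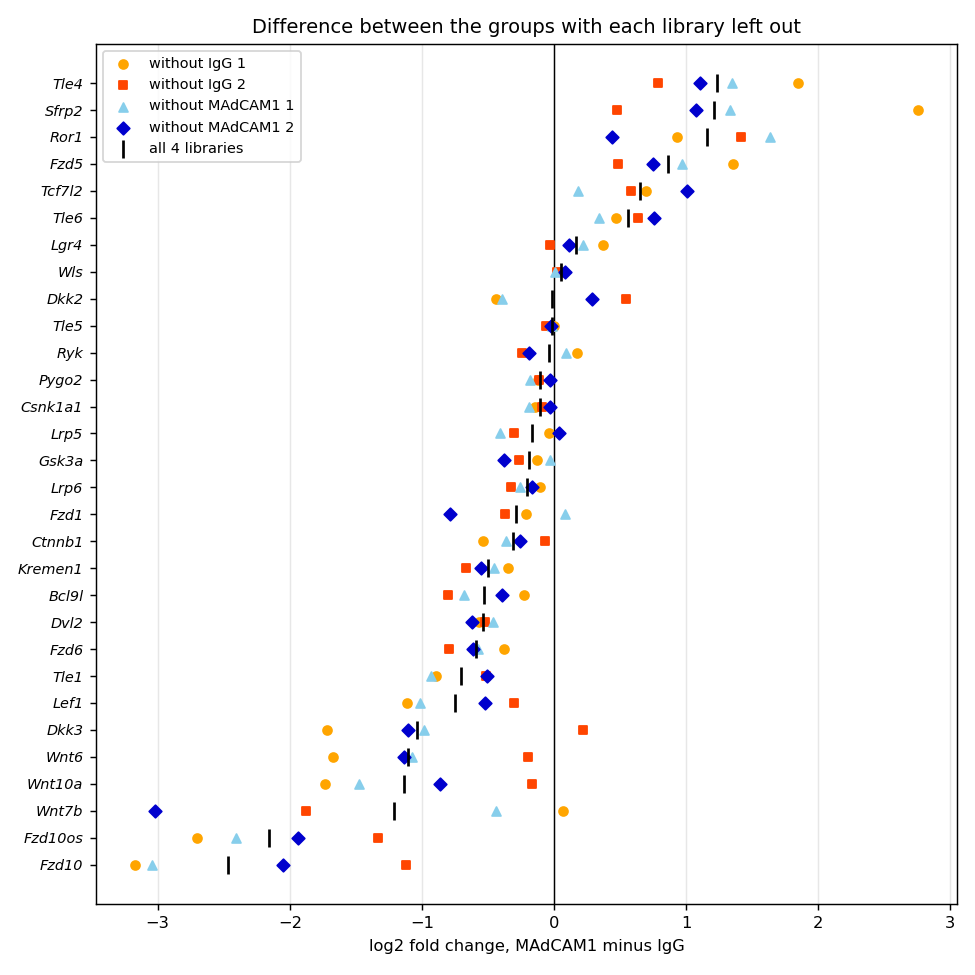
Log2 fold change, MAdCAM1 minus IgG, of 30 members with all 4 libraries (black bar) and with each library left out (coloured points). Without IgG 2 the values of Wnt6, Wnt10a and Dkk3 shift to between −0.19 and 0.22, whereas Dvl2 stays between −0.62 and −0.46.

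Genes downstream of the pathway and its other components were taken from 2 lists of known pathway genes. Of 24 tested feedback and target genes, 0 passed the edgeR quasi-likelihood test, 9 lay lower in both MAdCAM1 libraries and 1, the cyclin gene Ccnd2, lay higher, where 18.7% and 19.7% of all genes did. Their median log2 fold change was −0.44. IgG 2 was the highest library for 14 of them (58.3%, against 29.3% of all genes) and MAdCAM1 2 the lowest for 21 (87.5%, against 27.8%). The 3 of smallest p were Apcdd1 and Nkd1, which inhibit the pathway, and the transcription factor gene Prox1. Without IgG 2 their log2 fold changes were −0.84, −0.60 and −0.66, against −1.57, −1.18 and −0.86 with all libraries. DESeq2 called Apcdd1 (adjusted p = 0.0317) and the exact test did not (adjusted p = 0.137).

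Of 43 tested components outside the symbol rule, 0 passed the edgeR quasi-likelihood test, 14 lay lower and 4 higher in both MAdCAM1 libraries (18.7% and 19.7% of all genes), and the median was −0.15. Tpbg, a membrane protein that inhibits Wnt signalling at the receptor, stood at 32.2 and 30.0 CPM against 17.4 and 19.2 CPM (log2 ratio −0.76, SE 0.17). Ptk7, a receptor of the polarity branch, stood at 72.3 and 65.6 CPM against 45.3 and 47.2 CPM (log2 ratio −0.58, SE 0.14). Csnk1e, a kinase that acts on Dishevelled, stood at 87.7 and 104.7 CPM against 75.2 and 57.3 CPM. For Tpbg and Ptk7 the libraries of a group lay close together, and the values ranged from −0.83 to −0.70 and from −0.65 to −0.52 when any 1 library was left out.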

How the data were processed

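CAGE libraries of colon tumours from 4 mice were analysed, 1 per mouse and 2 per antibody group. Per the labels' protocols, cap-trapped, random-primed cDNA was read as single ends of 75 nt, and tags were mapped to GRCm39 with BWA 0.7.17 and then HISAT2 2.0.5. Clusters under 0.1 CPM, over 200 bp long or of an irreproducible discovery rate from 0.1 up were discarded by the authors, and regions with 90% overlap between replicates were kept. The authors deposited raw tag counts per gene; the step from clusters to genes, and whether strand was kept, are not given in the sources used here.

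Counts were filtered with filterByExpr (14331 of 14979 genes kept), scaled by TMM and tested with edgeR 4.0.16 (robust quasi-likelihood F test, R 4.3.3, Benjamini-Hochberg over all genes, threshold 0.05). The common biological coefficient of variation was 0.322. Alternatives were RLE and library size scaling, 2 other filters, the exact test, DESeq2 1.42.0, limma-voom (limma 3.58.1), a replicate block and leaving out each library. The tests were tested on simulated data. Members and lists were chosen with earlier results of these data known. Described in full are the 3 members of highest mean level per role, members without overlap at a log2 difference of at least 0.5, and the 3 genes of smallest p of each pathway list; other members are added since all were to be accounted for. Upstream windows and positions come from GENCODE M39 on GRCm39, matched by gene ID, with windows set from the start of the canonical transcript. The replicate numbers name different mice, so the main fit has no block. With only these 4 mice, the p-values rest on the spread between the 2 mice of each group, which the fit moderates with information from all genes. Letters searched upstream were chosen after the data were seen.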

Additional observations from a re-analysis of the deposited data

How the results depend on the processing

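The number of genes called over the whole table was 0 with every scaling, filter, limma-voom and left-out library run, but 161 with edgeR's exact test and 239 with DESeq2; 0 members were called in each of these settings. Over the members the median log2 fold change was −0.33 with library size scaling, which moved the median of all genes to −0.099, and ranged from −0.25 to −0.12 when a library was left out. With a library left out, 25 to 31 members lay lower and 9 to 15 lay higher without overlap. Of all genes, 32.5% to 38.7% then lay lower and 33.1% to 35.1% higher. In these runs 1 value in 1 group overlaps less often by construction. With the replicate number as a block, 0 genes and 0 members were called, with a median over members of −0.20. The number marks no shared animal, and the differences between replicates of the 2 groups correlated at −0.15 over all genes and at −0.463 over the members. The crossed pairing, added after the data were seen, also gave 0 calls. Small values changed sign for Wls (−0.047) and Fzd3 (−0.036) with library size scaling, for Dkk2 (0.029) and Fzd2 (−0.014) with limma-voom, and for Dkk2 (0.026) and Fzd2 (−0.018) with the replicate block. The cause was not tested. With 1 library left out the sign changed for 22 members, whose log2 fold changes ranged as follows: Wnt7b (−3.02 to 0.065), Wnt16 (−2.19 to 1.25), Wnt11 (−1.23 to 0.77), Dkk3 (−1.72 to 0.22), Dkk2 (−0.44 to 0.54), Lgr4 (−0.030 to 0.37), Fzd1 (−0.79 to 0.087), Fzd7 (−0.72 to 0.41), Fzd2 (−0.87 to 0.69), Fzd8 (−0.17 to 0.55), Fzd4 (−0.16 to 0.051), Fzd9 (−0.47 to 0.91), Fzd3 (−0.22 to 0.30), Lrp5 (−0.41 to 0.039), Ryk (−0.25 to 0.18), Ror2 (−0.027 to 0.43), Gsk3b (−0.31 to 0.10), Amer1 (−0.42 to 0.053), Tle5 (−0.060 to 0.0026), Tcf7 (−1.41 to 0.022), Tcf7l1 (−0.057 to 0.66), Tle2 (−1.32 to 0.011). Alternative tests give no count of overlap of their own.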
